A study of Homo sapiens with 10 samples.

Results

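The 5' leaders described here are the untranslated mRNA 5' ends that held fewer anti-FLAG eIF4A counts after rocaglate treatment than after vehicle, in a data set where most leaders held more. They were selected on measured values: a leader needed at least 90 counts summed over the 9 anti-FLAG libraries, and its mean CPM over the 6 rocaglate libraries had to be at most 0.8 times its mean over the 3 DMSO libraries. CPM (the share of a library scaled to 1000000) were the leader's count over all counts of its library. Of 6611 leaders with at least 90 counts, 936 (14.2%) met the limit, and 15812 leaders had a count in at least 1 library. The libraries came from HEK 293T cells, an established human embryonic kidney line, in which eIF4A carried a FLAG tag. Cells received DMSO (the vehicle), 20 nM silvestrol or 20 nM CR-1-31-B for 1 h, were crosslinked with 254 nm ultraviolet light at 400 mJ/cm2, and gave 3 anti-FLAG eCLIP libraries per condition and 1 input library. The input library is titled replicate 2, and its title names no treatment. All groups, controls included, were precipitated through the tag, and the labels do not say how much tagged eIF4A the cells held beside their own.

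The helicase eIF4A is the part of the cap-binding complex eIF4F that unwinds the mRNA 5' leader so that the small ribosomal subunit can load and scan. Silvestrol and CR-1-31-B are rocaglates, which hold eIF4A on RNA, with a known preference for purine-rich stretches. Ribosomal protein and elongation factor mRNAs form a class of their own, the TOP mRNAs. They start with a C followed by an unbroken run of pyrimidines (a 5' terminal oligopyrimidine tract) and are known for their joint translational control.

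The smallest anti-FLAG library held 858733 counts and the largest 1804732, against 2193699 for the input. All 8 markers of HEK 293T cells chosen for this check had at least 90 counts over their leader, CDS and 3'UTR, and 0 of 3 hepatocyte markers did. Among 5 blood markers 1 did (CD68), and among 3 fibroblast markers 1 did (COL1A1). CPM are relative, and the amount of each mRNA after each treatment was not measured. Less eIF4A on a leader, less of its mRNA and more counts elsewhere cannot be told apart. The labels do not say whether the numbered libraries are separate cultures, so p-values measure the spread between these libraries, which may be technical.

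Start sequences of the chosen ribosomal protein mRNAs are shown because ribosomal proteins had the largest chosen share of the 26 gene lists examined. Each line gives the 20 bases from the start annotated by RefSeq (GRCh38.p14), 5′ to 3′, with the opening pyrimidine tract in capitals. These are the 8 with the lowest ratios of rocaglate to DMSO CPM among ribosomal protein and other TOP genes whose RefSeq start opened with a C and at least 4 more pyrimidines.

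RPS13 (chr11:17077648-17077667, minus strand): CCTTTCgttgcctgatcgcc
RPL14 (chr3:40457339-40457358, plus strand): CTTCTCgcctaacgccgcca
RPS3A (chr4:151099628-151099647, plus strand): CCCTTTTggctctctgacca
RPL31 (chr2:101002289-101002308, plus strand): CTTCCTTTCCaacttggacg
RPL39 (chrX:119791611-119791630, minus strand): CCCTCCTCTTCCTTTCTCCg
RPL22 (chr1:6199576-6199595, minus strand): CCTTTCTaactccgctgccg
RPS23 (chr5:82278335-82278354, minus strand): CTCTTTCgctcaggcccgtg
RPL37A (chr2:216498844-216498863, plus strand): CTTTCTgggctcggacctag

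The tracts ran from 6 bases in RPS13, RPL14 and RPL37A to 19 in RPL39. RefSeq starts were matched for 763 of the 936 chosen leaders and 4744 of the 5675 others. Such a tract opened 68 of the 763 (8.91%) and 274 of the 4744 (5.78%), against 4.04% of all 27305 RefSeq starts. Without ribosomal protein genes the shares were 7.31% and 5.25%. Within the ribosomal proteins the order was the other way round, with a tract at 14 of 24 chosen starts (58.3%) and 27 of 38 others (71.1%). This difference was not tested. The annotated start need not be the one these cells use, so a start without a tract does not show that the mRNA lacks one.

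Purines were fewer in the chosen leaders. GENCODE v29 leaders were matched for 896 chosen and 5583 other genes (1 transcript each), and purines made up 48.4% ± 7.54 (SD over 896 leaders) and 51.6% ± 7.53 (SD over 5583 leaders) of their bases. The difference of the means, -3.25 percentage points, was smaller than the SD between leaders. Along the whole range of ratios the mean purine content was 48.0% where the ratio was under 0.5, 49.6% from 0.8 to 1, 51.7% from 1.3 to 1.7 and 54.7% over 2.5. A run of at least 12 purines occurred in 16.6% of the chosen and 24.1% of the other leaders. Among the others the share was 17.3% where the ratio was from 0.8 to 1, near the chosen share, and 29.8% over 2.5. Split into 4 equal groups by leader length (limits 141, 241 and 398 bases), the shares with such a run were 2.57% and 6.26%, 7.21% and 15.2%, 19.9% and 26.2%, and 41.5% and 48.2%, chosen before others, from the shortest group to the longest. Chosen leaders were shorter, with a median of 224 bases against 245, and had nearly the same GC content (medians 67.8% and 68.4%).

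The purine motif GAGA and its reverse complement TCTC, which is made of pyrimidines, were searched on the RNA strand in the first 100 bases of leaders of at least that length. GAGA occurred in 194 of 724 chosen leaders (26.8%), in 35.0% of 4838 others and in 36.8% of all 13573 GENCODE leaders of that length. TCTC occurred in 263 of the 724 (36.3%), in 1402 of the 4838 others and in 34.1% of the GENCODE leaders. Among the others, those with a ratio from 0.8 to 1 had GAGA in 28.7% and TCTC in 33.6%, near the chosen shares. Neither motif is a measured binding site. The exact GENCODE transcript need not be the one these cells use, and the annotation behind the deposited counts is not given in the sources used here.

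**Figure D1:**
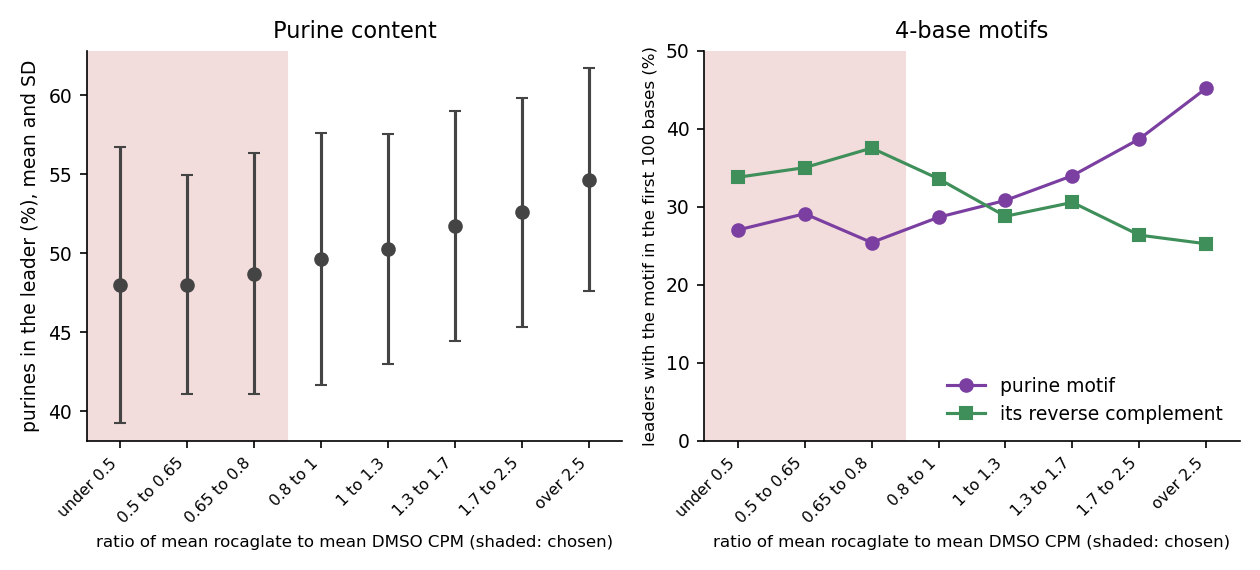
Left, purine content of the annotated leader (mean and SD over leaders, percent) for leaders grouped by the ratio of mean rocaglate to mean DMSO CPM, with the chosen groups shaded. Right, share of leaders of at least 100 bases with the purine motif or its pyrimidine reverse complement in the first 100 bases. The mean purine content goes from 48.0% in the lowest group to 54.7% in the highest, and the purine motif from 27.0% to 45.2%.

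The chosen leaders lay in the left tail of a distribution centred above 1. The median ratio of rocaglate to DMSO CPM was 1.31 over all 6611 leaders and 0.668 over the chosen ones, whose ratios ran from 0.206 to 0.8. Of the 936, 111 had a ratio under 0.5, 437 one from 0.5 to under 0.7 and 388 one from 0.7 to 0.8. At the limit, PDE7A (0.79991) and CYB561A3 (0.79992) were just inside, and C2orf42 (0.80007) and UBE4A (0.80014) just outside. At the count limit, UNC5C and USP16 had 90 counts and SLC30A1 and GJD3 had 89, in each case together with other leaders of the same count. Most chosen leaders were thinly covered: their mean DMSO CPM had a median of 22.8 and ran from 9.0 to 503, and 460 held fewer than 180 counts over the 9 libraries. The chosen share was 19.1% of leaders with under 180 counts, 14.5% from 180 to under 360, 10.3% from 360 to under 720, 5.24% from 720 to under 1440 and 5.93% above.

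**Figure D2:**
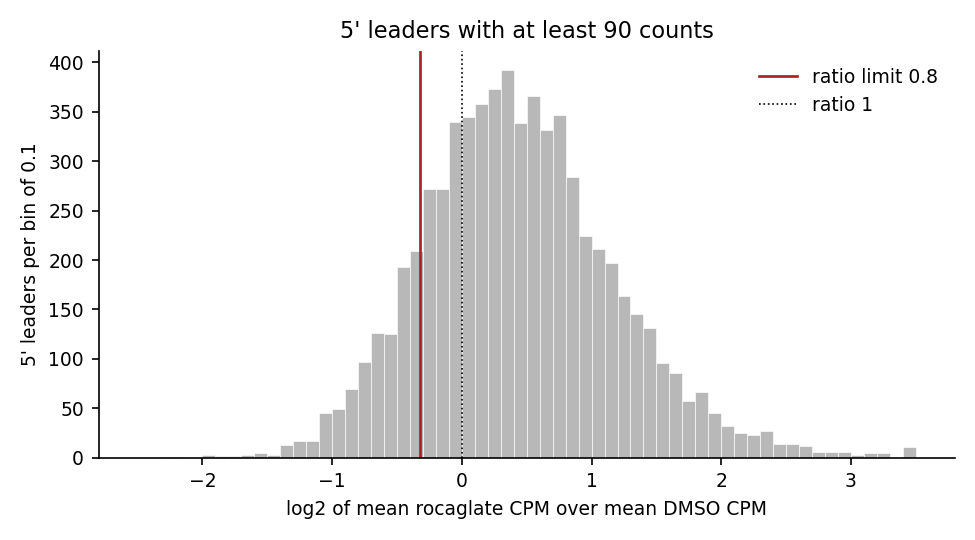
Number of 5' leaders (y axis) in bins of 0.1 of the log2 ratio of mean rocaglate CPM to mean DMSO CPM (x axis), with values past either end of the axis in the last bin. The solid line marks the limit of 0.8, with 936 of 6611 leaders at or left of it, and the dotted line a ratio of 1.

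Summed over the 936 leaders, the level was 33675, 37793 and 26493 CPM in DMSO libraries 1 to 3. The silvestrol libraries held 23233, 20803 and 21003 CPM and the CR-1-31-B libraries 24259, 21138 and 17289. The chosen leaders took 12.8% to 15.7% of all leader counts with DMSO, 6.05% to 7.59% with a rocaglate and 14.6% in the input. These sums are what the rule chose on and are a description only.

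The lowest ratio, 0.206, belonged to CISD1, which encodes an iron-sulfur protein of the outer mitochondrial membrane. Its leader had 18.7, 40.9 and 4.24 CPM with DMSO, 4.43, 1.99 and 6.99 with silvestrol, and 6.83, 3.91 and 2.18 with CR-1-31-B. DMSO library 3 lay among the rocaglate libraries, so the groups overlapped. Without DMSO library 2 the ratio was 0.383.

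P2RY14, which encodes a receptor for UDP-sugars, had 29.9, 9.31 and 18.0 CPM with DMSO, 3.88, 0 and 5.82 with silvestrol, and 6.21, 4.69 and 8.74 with CR-1-31-B. GLTP, a glycolipid transfer protein gene, had 20.5, 29.8 and 17.0 CPM with DMSO, 7.76, 2.99 and 8.15 with silvestrol, and 4.97, 6.25 and 5.46 with CR-1-31-B. POLR2D, an RNA polymerase II subunit gene, had 28.0, 27.9 and 11.7 CPM with DMSO, 8.31, 0 and 5.82 with silvestrol, and 9.94, 8.60 and 5.46 with CR-1-31-B. In these leaders, and in C1orf27 (ratio 0.265), MRPL34 (0.292, a mitochondrial ribosomal protein gene) and MST1 (0.315), all 6 rocaglate libraries lay below all 3 DMSO libraries.

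TXNDC17 (0.285), RPS13 (0.323), RPS28 (0.325) and RPL14 (0.330) complete the lowest ratios together with CDT1 (0.288), and their groups overlapped. Single libraries moved several of these values: RPL14 had a ratio of 0.578 without DMSO library 2 and 0.217 without CR-1-31-B library 1, TXNDC17 one of 0.431 without DMSO library 1, and RPS28 one of 0.215 without CR-1-31-B library 1. CDT1, which licenses replication origins, had 8.4, 47.5 and 1.06 CPM with DMSO, 6.10, 1.99 and 3.49 with silvestrol, and 11.2, 7.82 and 2.18 with CR-1-31-B. Its ratio rested on DMSO library 2 and was 1.15 without it.

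Among the leaders with most DMSO counts, RPL5, a protein of the large ribosomal subunit, had 450, 353 and 348 CPM with DMSO, 265, 203 and 231 with silvestrol, and 209, 91.5 and 123 with CR-1-31-B. The groups did not overlap and the ratio was 0.488. TUBA1B, an alpha-tubulin gene, had 340, 275 and 175 CPM with DMSO, 157, 126 and 106 with silvestrol, and 168, 127 and 78.6 with CR-1-31-B, again without overlap (0.484). EEF1A1, the elongation factor that brings aminoacyl-tRNA to the ribosome and itself a TOP mRNA, had 350, 243 and 232 CPM with DMSO, 156, 96.6 and 196 with silvestrol, and 173, 163 and 131 with CR-1-31-B, without overlap (0.554).

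RPLP1, an acidic stalk protein of the ribosome, had the highest level of all, 503 ± 160 CPM with DMSO (SD, n = 3) and 367 ± 92.0 with the rocaglates (SD, n = 6), and its groups overlapped. PCBP2, an RNA-binding protein gene, had 312 ± 102 and 203 ± 55.7 CPM, OGT, the O-GlcNAc transferase gene, 326 ± 75.7 and 258 ± 81.8, and the linker histone gene H1FX 265 ± 54.5 and 199 ± 49.2, all with overlap. TRIM55 had 271, 822 and 297 CPM with DMSO, 243, 500 and 112 with silvestrol, and 211, 606 and 161 with CR-1-31-B. In every condition its library 2 was the highest, and each rocaglate library lay below the DMSO library of its own number. Without DMSO library 2, but with the rocaglate libraries 2 kept, its ratio of 0.659 became 1.08.

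**Figure D3:**
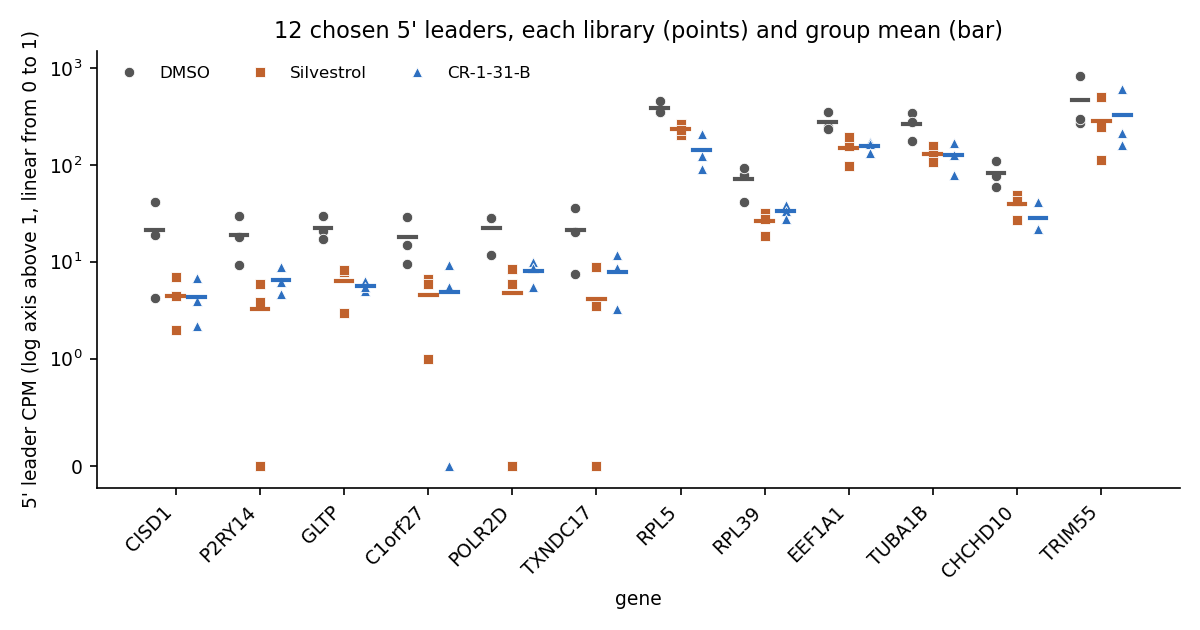
5' leader CPM of 12 chosen leaders in each library (points) with the mean of each group of 3 libraries (bar), on an axis that is logarithmic above 1 CPM and linear from 0 to 1. P2RY14, GLTP, C1orf27, POLR2D, RPL5, RPL39, EEF1A1, TUBA1B and CHCHD10 have all rocaglate points below all DMSO points, while CISD1, TXNDC17 and TRIM55 overlap.

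Over all 936 leaders, 54 (5.77%) had all 6 rocaglate libraries below all 3 DMSO libraries, which is 0.817% of the 6611 leaders. The opposite, all rocaglate libraries above all DMSO libraries, held for 8.86% of the 6611. Compared with the DMSO library of the same number, 221 chosen leaders were lower in 6 of 6 rocaglate libraries, 344 in 5 and 371 in 4 or fewer. These counts use the values that the rule chose on, were not made for the other leaders, and are a description only. The DMSO libraries spread widely, with a median coefficient of variation of 42.3% in the chosen leaders and 41.7% in the others. DMSO library 2 was the highest of the 3 in 465 chosen leaders (49.7%), against 37.3% of the others. Without that library, 615 of the 936 kept a ratio of at most 0.8 and 120 had one over 1. The corresponding numbers were 725 and 59 without DMSO library 1, and 825 and 27 without DMSO library 3.

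Tests on these leaders repeat the contrast that chose them and support nothing. For the record, edgeR's quasi-likelihood test called 0 of the 921 that passed its filter on low counts lower at an adjusted p under 0.05, and 0% of all 7122 leaders tested. With the replicate number as a block it called 6 (0.0842% of all leaders tested), namely CHCHD10, RPL39, RPS15A, RPL5, GLO1 and TUBA1B. DESeq2 called 4 (0.0562%), which were CHCHD10, RPL39, RPL5 and TUBA1B. These are all the leaders that each fit called lower.

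Cytosolic ribosomal protein genes had the largest chosen share of the 26 gene lists, 29 of 78 leaders (37.2%), with 13 of 33 from the small subunit and 16 of 45 from the large. The family did not move as 1 block. Ratios ran from 0.323 (RPS13) to 3.04 in the small subunit and from 0.330 (RPL14) to 5.34 in the large, and 36 of the 78 were over 1. RPL39, whose tract is the longest of those printed above, had 79.3, 92.1 and 41.3 CPM with DMSO, 32.1, 27.9 and 18.6 with silvestrol, and 38.5, 33.6 and 27.3 with CR-1-31-B, without overlap. RPS3A had 58.8, 73.5 and 20.1 CPM with DMSO, 16.6, 19.9 and 14.0 with silvestrol, and 23, 28.9 and 0 with CR-1-31-B, with overlap. RPL39 and RPL5 were the 2 chosen ribosomal protein leaders of 29 without overlap. Ribosomal protein mRNAs have many near-identical pseudogene copies, so how the counting shared their reads is uncertain.

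TOP mRNAs outside the ribosome came next with 5 of 17 leaders (29.4%): EEF1G, EEF1B2 and EEF1A1 of the elongation machinery, SLC25A6, a mitochondrial ADP/ATP carrier, and COX4I1, a cytochrome oxidase subunit. EEF1G had 78.4, 61.4 and 24.4 CPM with DMSO, 33.2, 24.9 and 11.6 with silvestrol, and 33.5, 22.7 and 25.1 with CR-1-31-B. DMSO library 3 lay within the rocaglate range.

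Genes of the mitochondrial respiratory complexes had 14 of 53 leaders chosen (26.4%). A list made for mitochondrial import, which also took in genes named CHCHD, had 5 of 19 (26.3%). These were TOMM7, TOMM20, TIMM9, CHCHD3 and CHCHD10, of which the last 2 are not import machinery. ATP5A1, the alpha subunit of ATP synthase, had 40.0 ± 16.4 CPM with DMSO and 22.4 ± 8.55 with the rocaglates, and UQCR11 of complex III had 34.4 ± 6.30 and 18.1 ± 11.9 (SD, n = 3 and 6). CHCHD10, a protein of the mitochondrial intermembrane space, had 77.5, 109 and 58.3 CPM with DMSO, 48.8, 26.9 and 41.9 with silvestrol, and 41.0, 21.9 and 21.8 with CR-1-31-B. Its groups did not overlap, nor did those of CHCHD3 (35.1 ± 4.66 and 20.0 ± 5.59). TOMM20, a receptor of the outer membrane import complex, had 139 ± 60.1 and 106 ± 19.0 CPM, with overlap.

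Glycolysis had 3 of 14 leaders (LDHA, GPI and PFKP, 21.4%), genes named TMEM 19 of 89 (21.3%), histones 5 of 24 (20.8%) and solute carriers 24 of 121 (19.8%). LDHA, lactate dehydrogenase A, had 117, 14.0 and 28.6 CPM with DMSO, so that its mean rested on library 1. Cytoskeleton genes had 11 of 64 (17.2%) and translation factors 7 of 45 (15.6%). Mitochondrial ribosomal proteins had 5 of 33 (15.2%), RNA polymerase and Mediator genes 8 of 53 (15.1%) and chaperones 7 of 47 (14.9%), all near the 14.2% of all leaders. The chaperone leaders with most counts were TCP1 (207 ± 64.6 and 134 ± 49.9 CPM) and HSP90AA1 (176 ± 94.3 and 105 ± 49.8).

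Lists with small chosen shares were kinases and phosphatases, 14 of 171 (8.19%), chromatin regulators, 6 of 76 (7.89%), and cell cycle genes, 5 of 77 (6.49%). The list made for transcription factors of the SOX, POU, FOX, HOX, KLF, ATF, JUN, FOS and MYC families had 2 of 75 (KLF15 and TEAD2, 2.67%). TEAD2 is in none of these families, so the list also holds symbols from outside them. The remaining lists lay between 9.68% (proteasome subunits, 3 of 31) and 13.8% (zinc finger genes, 30 of 217). In between were membrane traffic, 16 of 120, the ubiquitin system, 18 of 141, and aminoacyl-tRNA synthetases, 3 of 24. RNA helicases had 3 of 26, hnRNP, SR and snRNP proteins 7 of 63, ribosome biogenesis genes 5 of 45 and DNA replication genes 3 of 28. Of the 936 chosen genes, 252 were in a list and 684 in none. The lists were made from gene symbols and not from curated annotation, so any of them may hold genes from outside the function it is named for. The shares were not tested. The lists also overlap. Of the other TOP mRNAs, EEF1A1, EEF1G and EEF1B2 also count as translation factors, SLC25A6 as a solute carrier and COX4I1 in the respiratory complexes.

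**Figure D4:**
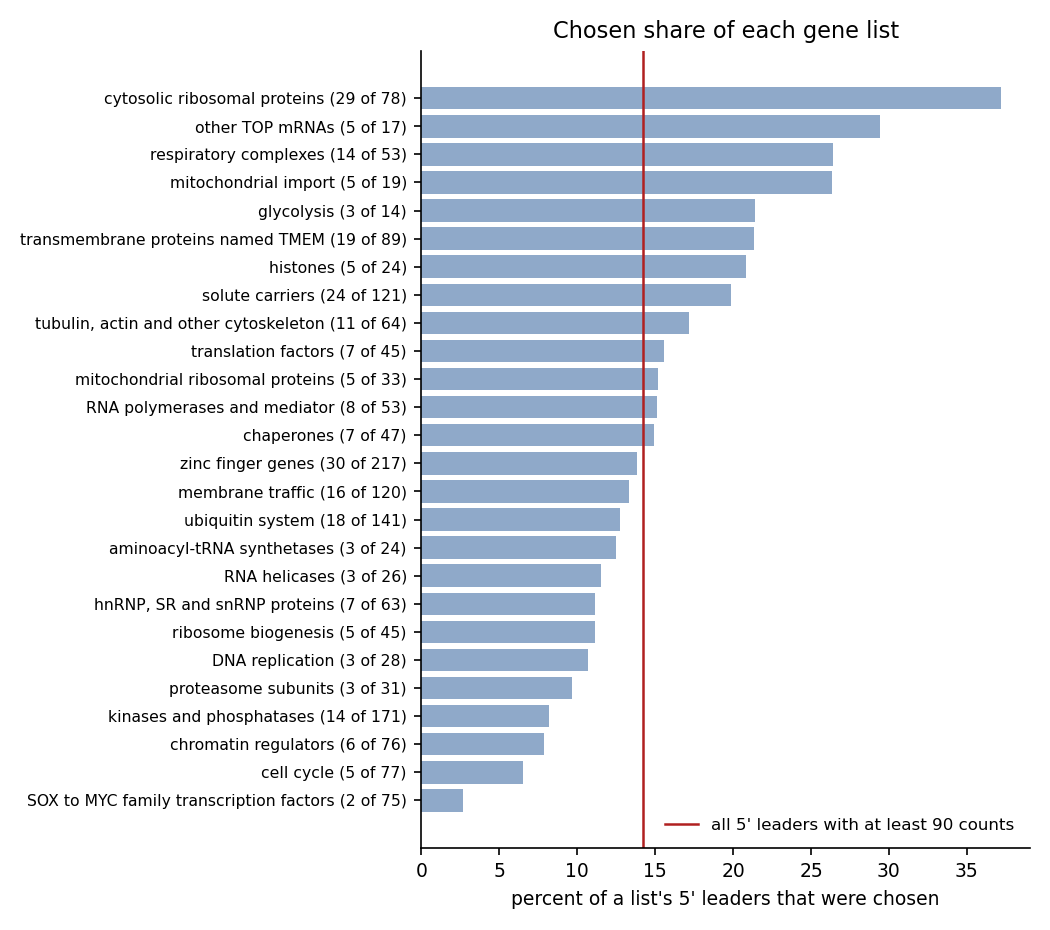
Share of each gene list's 5' leaders with at least 90 counts that were chosen (bars, percent, from 0), with the numbers of chosen and all such leaders in brackets. The line is the 14.2% of all 6611 leaders, and the bars run from 2.67% for the transcription factor list to 37.2% for cytosolic ribosomal proteins.

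Silvestrol and CR-1-31-B were given at the same dose and time, and the rule used their mean, not their difference. The ratio to DMSO had a median of 0.655 with silvestrol and 0.626 with CR-1-31-B. Of the 936 leaders, 881 were below 1 with both compounds, and 594 were at or under 0.8 with both, 142 with silvestrol alone and 200 with CR-1-31-B alone. In the direct comparison, edgeR's quasi-likelihood test over all features called 0 of the 921 leaders tested at an adjusted p under 0.05, in either direction. At an unadjusted p under 0.05 there were 24 (2.61%), against 239 of all 7122 leaders (3.36%). DESeq2 and the fit with the replicate block also called 0 of the 921. Over all leaders tested the share called was 0% in each direction, apart from 0.014% higher (1 leader) with the block.

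The median log2 difference of CR-1-31-B from silvestrol was -0.09 in the chosen leaders and -0.07 over all leaders. For RPL5 it was -0.78 (95% normal interval from the SE -1.46 to -0.09, edgeR adjusted p = 0.9995), with 233 ± 30.9 CPM with silvestrol and 141 ± 60.9 with CR-1-31-B (SD, n = 3 each). For TUBA1B it was -0.11 (interval -0.83 to 0.61) and for EEF1A1 0.01 (-0.67 to 0.69). In the median leader such an interval reached 1.21 log2 units to either side. The interval is not adjusted for the number of features tested, so it does not give the size from which a difference would be called. In the chosen leaders the log2 differences ran from -2.94 to 2.12, and the smallest edgeR adjusted p was 0.9995. Differences well over 1.21 were thus not called either, and the result does not show that the compounds act alike.

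The coding sequences (CDS) of the same genes did not enter the rule, though they come from the same libraries. They lay slightly lower with the rocaglates than other CDS rows. Of the 936 genes, 686 had a CDS row that passed the filter, with a median log2 fold change of -0.23 for both rocaglates against DMSO. The median was -0.01 over the 4569 CDS rows of genes with at least 90 leader counts whose leader was not chosen. It was -0.04 over all 8413 CDS rows. Of the 686, 465 were below 0 (67.8%), against 50.9% of the 4569. With silvestrol alone the median was -0.23 and with CR-1-31-B alone -0.20. The 2 contrasts share their DMSO libraries, which also chose the leaders.

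No single CDS row of these genes passed the main test, which did not use the replicate numbers. EdgeR's quasi-likelihood test called 0 of 686 lower and 0 higher at an adjusted p under 0.05, against 0% and 0.273% of all CDS rows. At an unadjusted p under 0.05 it found 58 of the 686, of which 38 were lower (5.54%). Over all 8413 CDS rows it found 672, of which 218 were lower (2.59%). With the replicate block it called 5 lower and 3 higher, against 0.178% and 1.19% of all CDS rows, and DESeq2 called 2 lower and 2 higher, against 0.0713% and 1.05%. Among 657 CDS rows with at least 90 counts, 31 (4.72%) had all 6 rocaglate libraries below all 3 DMSO libraries and 8 (1.22%) above, where all 7829 such CDS rows had 3.08% and 2.61%.

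The lower calls with the replicate block included a chaperone, an elongation factor and ribosomal proteins. HSPA8, the constitutive Hsc70 chaperone, had CDS levels of 543, 222 and 265 CPM with DMSO, 210, 107 and 128 with silvestrol, and 177, 149 and 145 with CR-1-31-B. All rocaglate libraries lay below all DMSO libraries, and the log2 fold change was -1.04 (SE 0.22, edgeR adjusted p = 0.00985 with the block). Without the block it was -1.10 (SE 0.31, adjusted p = 0.112). EEF1A1 had CDS levels of 987, 860 and 790 CPM with DMSO, 607, 394 and 424 with silvestrol, and 603, 349 and 503 with CR-1-31-B, also without overlap. Its log2 fold change was -0.85 (SE 0.19, edgeR adjusted p = 0.0187 with the block, 0.226 without). DESeq2 called these 2 CDS rows as well.

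The CDS rows of the small subunit proteins RPS23 (-1.19) and RPS15A (-0.99) were also called lower with the block, at edgeR adjusted p of 0.0154 and 0.0361, against 0.196 and 0.218 without it. The RPS23 CDS had 165, 78.2 and 74.2 CPM with DMSO, 63.2, 18.9 and 39.6 with silvestrol, and 77.6, 32.1 and 42.6 with CR-1-31-B. CR-1-31-B library 1 lay above DMSO library 3, the only overlap, while each rocaglate library lay below the DMSO library of its own number. Over the 26 ribosomal protein genes with a chosen leader and a tested CDS, the CDS median was -0.46 and 25 were below 0. The others, here and in the lists below, are genes with at least 90 leader counts whose leader was not chosen. The 45 other ribosomal protein CDS rows had a median of -0.19, with 27 below 0. In the respiratory complexes 12 of 13 CDS rows of genes with a chosen leader were below 0 (median -0.53), and 18 of 36 of the others. For the chaperones 6 of 6 were below 0 (median -0.58), and 20 of 35 of the others (median -0.22). Other lists were low whether or not the leader was chosen: glycolysis had CDS medians of -0.58 over 3 genes with a chosen leader and -0.58 over 11 others, and the other TOP mRNAs -0.53 over 5 and -0.46 over 12, all below 0. Zinc finger genes with a chosen leader had a CDS median of 0.31, and the others 0.20.

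With the replicate block the CDS was called higher in 3 genes with a chosen leader. MED4, a Mediator subunit, had a leader level of 24.3, 3.72 and 21.2 CPM with DMSO and a rocaglate mean of 11.2 ± 7.52 (SD, n = 6). Its CDS had 20.5, 0 and 23.3 CPM with DMSO, 75.9, 56.8 and 74.5 with silvestrol, and 80.1, 97.7 and 38.2 with CR-1-31-B, all rocaglate libraries above all DMSO libraries. The CDS log2 fold change was 2.43 (SE 0.53, edgeR adjusted p = 0.0146 with the block) and 2.36 without it (adjusted p = 0.0565). VHL, the von Hippel-Lindau tumour suppressor, had a leader ratio of 0.642, with 39.4 ± 21.7 and 25.3 ± 10.2 CPM. Its CDS had 71.9, 55.8 and 26.5 CPM with DMSO, 170, 67.7 and 129 with silvestrol, and 193, 193 and 72.1 with CR-1-31-B, with overlap. The log2 fold change with the block was 1.51 (SE 0.32) at an edgeR adjusted p = 0.0129, and the adjusted p without it was 0.106. The CDS of the zinc finger gene ZNF346 had 28.0, 13.0 and 30.7 CPM with DMSO, 74.8, 29.9 and 43.1 with silvestrol, and 75.1, 101 and 69.9 with CR-1-31-B, with overlap (1.5, edgeR adjusted p = 0.0258 with the block, 0.0852 without). DESeq2 called VHL and ZNF346 and not MED4.

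By size alone, among CDS rows with at least 90 counts, the lowest log2 fold changes were those of PMS1 (-1.86), a mismatch repair gene, BAIAP2L1 (-1.66), PRSS53 (-1.52), PDLIM1 (-1.47) and SLFNL1 (-1.42). The highest besides MED4 and ZNF346 were FAM105A (1.93), PELI3 (1.76) and ZSCAN22 (1.69). PELI3 was at 2.86 without DMSO library 3, and PDLIM1 at -2.32 without CR-1-31-B library 1. In the main test their edgeR adjusted p ran from 0.174 to 0.42. PMS1 had CDS levels of 17.7, 18.6 and 20.1 CPM with DMSO, 2.77, 9.96 and 4.66 with silvestrol, and 2.48, 2.35 and 8.74 with CR-1-31-B, without overlap. PDLIM1 also had a leader without overlap, at 34.2 ± 2.26 CPM with DMSO and 15.0 ± 7.97 with the rocaglates.

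The 3'UTRs of these genes differed little from other 3'UTRs. The 532 rows tested had a median log2 fold change of -0.30. It was -0.24 over 3496 rows of genes with at least 90 leader counts whose leader was not chosen, and -0.22 over all 6712. Of the 532, 75.2% were below 0, against 70.9% of the 3496. EdgeR called 0 of the 532, and so did the fit with the block and DESeq2. Of all 3'UTR rows these fits called 0.0149%, 0.104% and 0.104% lower and 0%, 0.0894% and 0.0745% higher, in the same order. At an unadjusted p under 0.05 the edgeR fit had 23 of the 532, all lower (4.32%). Over all 6712 rows it had 3.10% lower and 0.492% higher. Of 491 with at least 90 counts, 28 (5.70%) had all rocaglate libraries below all DMSO libraries and 0 above, where all 5990 such rows had 4.06% and 0.467%.

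The lowest values were those of ATP5B (-1.72), the beta subunit of ATP synthase, TRAFD1 (-1.69), the tropomyosin gene TPM2 (-1.68), TSR1 (-1.39) and MANEAL (-1.30). The highest were SAV1 (1.56), a Hippo pathway scaffold, the clathrin light chain gene CLTA (1.17), SHANK1 (1.06), C1GALT1 (0.99) and TNK2 (0.92). Leaving out 1 library moved SAV1 to 2.44 (without DMSO library 1), MANEAL to -1.93 (without silvestrol library 1), TPM2 to -2.30 (without CR-1-31-B library 1) and C1GALT1 to 0.42 (without CR-1-31-B library 3). None passed the test (edgeR adjusted p from 0.307 to 0.716). The ATP5B 3'UTR had 27.1, 14.0 and 12.7 CPM with DMSO, 9.97, 4.98 and 4.66 with silvestrol, and 5.59, 0 and 6.55 with CR-1-31-B, without overlap. Of 429 genes with both parts tested, 228 (53.1%) had CDS and 3'UTR both below 0. The share was 38.2% of 3037 genes with at least 90 leader counts whose leader was not chosen.

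**Figure D5:**
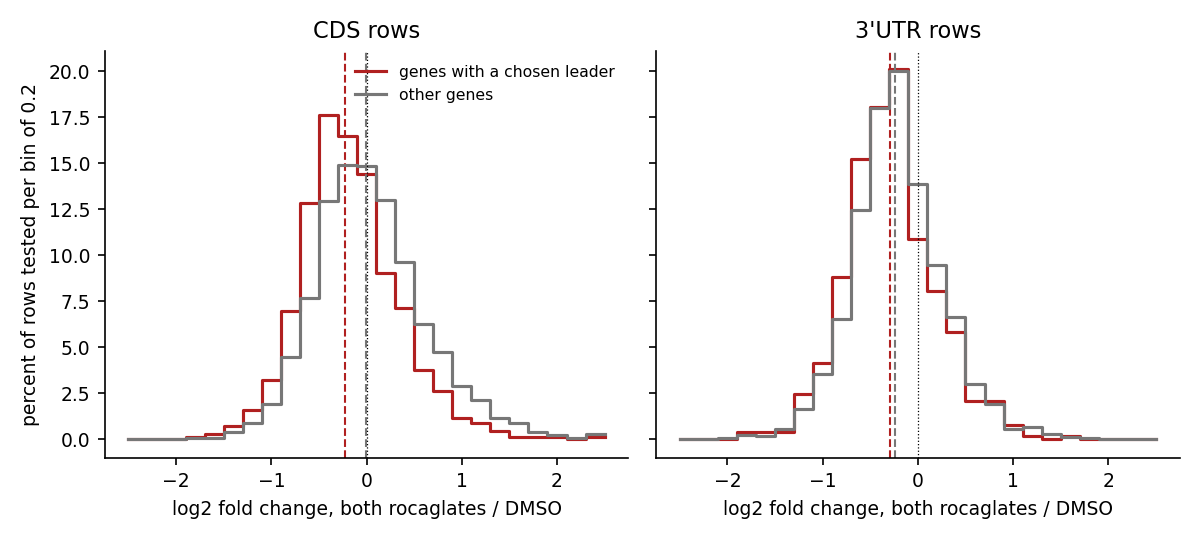
Distribution of the log2 fold change of both rocaglates against DMSO (x axis, edgeR) for CDS rows (left) and 3'UTR rows (right), in percent of the rows tested per bin of 0.2, for genes with a chosen leader (red) and the other genes with at least 90 leader counts (grey). Dashed lines are the medians, -0.23 and -0.01 for CDS and -0.30 and -0.24 for 3'UTR rows.

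Within a gene, the leader took a smaller part of the counts with rocaglates. The leader's share of a chosen gene's leader, CDS and 3'UTR counts had a median of 43.6% with DMSO, 38.0% with silvestrol, 35.8% with CR-1-31-B and 14.3% in the input. For the other genes the medians were 35.0%, 47.8%, 45.4% and 11.8%. The share was lower with the rocaglates than with DMSO in 729 chosen genes (77.9%) and 859 others (15.1%). The leader counts that make up this share are those the rule used.

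Relative to the input, the chosen leaders were well represented in the DMSO libraries. The ratio of mean DMSO CPM to input CPM had a median of 5.05 in the chosen leaders and 4.08 in the others, and it was over 10 in 25.5% and 14.0%. It was under 1 in 4.06% and 4.12%. The same ratio for the rocaglate libraries had a median of 3.16 in the chosen leaders and 6.55 in the others. The DMSO libraries also entered the rule, there is 1 input library, and 411 of the 936 leaders held fewer than 10 input counts, so these ratios are a description. In 11 leaders the input held 0 counts, and their ratios were computed against a floor of 3 counts (1.37 CPM) and are lower bounds, a floor that covers counting error only.

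Of leaders with at least 10 input counts, TOMM20 had the highest ratio (25.4, with 12 input counts), followed by TFDP1 (17.8), a partner of E2F factors, CHCHD10 (16.3) and KDELR2 (14.8), a receptor that returns proteins to the endoplasmic reticulum. TFDP1 had 105, 94.9 and 66.8 CPM with DMSO, 61.5, 67.7 and 52.4 with silvestrol, and 64.6, 46.9 and 38.2 with CR-1-31-B. At the other end, the leader of PARP2, a DNA repair enzyme, held 3403 input counts and 76.6 ± 8.28 CPM with DMSO, a ratio of 0.0494. The PARP2 leader counts are uncertain, because the sources used here do not say how reads in overlapping genes were assigned. BANP (0.550), FAM83E (0.553) and AVIL (0.581) followed. OGT was also below 1 (0.812), with 882 input counts.

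Some chosen leaders stood alone on their gene. In 42 of the 936 (4.49%) the CDS held fewer than 10 counts over the 9 anti-FLAG libraries, against 1.59% of the other leaders. TRIM55 held 3750 leader counts and 1 CDS count, and NME2, a nucleoside diphosphate kinase gene chosen after its values were seen, held 1547 and 0. Of the chosen genes, 24 had LOC symbols, of 47 such leaders with at least 90 counts. How reads in overlapping or near-identical genes were assigned is not given in the sources used here, so leader counts of such genes are uncertain.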

How the data were processed

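The authors deposited 1 table of whole-number read counts per library, for 39472 gene symbols in 7 classes, per the file headers: the 3 parts of an mRNA and 4 classes of other RNA. Per the submitters' processing notes, cutadapt and Bowtie 1.1 were used. Build, annotation, duplicates and strand are not given in the sources used here. Each file held 1 blank line, which was left out.

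CPM are a count over all 7 columns times 1000000. Counts of the 9 anti-FLAG libraries were fitted with edgeR 4.0.16 (R 4.3.3): filterByExpr by group, TMM, quasi-likelihood tests, and Benjamini-Hochberg adjustment over all 24713 features. Alternatives were RLE factors, DESeq2 1.42.0, no filter, a replicate block and leaving out each library. On data simulated for both rocaglates against DMSO, among 24713 features, edgeR called 32 of 100 features changed 4-fold, 2 of 100 changed 2-fold and 4 unchanged ones. The 9 same-number library pairs correlated at 0.102 to 0.263 in their deviations from the group means (others -0.203 to 0.0165). The numbers were taken as pairs in the fit with the replicate block, while the main fit used the group alone. The labels do not state this pairing.

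Members, gene lists and tests were chosen with earlier results of these data known. Named are the 12 lowest ratios, the 8 highest DMSO CPM, 4 highest and 4 lowest DMSO to input ratios (at least 10 input counts), called rows, the 5 highest and 5 lowest CDS and 3'UTR fold changes, leaders at the limits, and up to 4 members with the highest DMSO CPM of each list. Further list members and printed starts follow the rules given beside them. Leaders were taken from GENCODE v29 (1 transcript a gene) and starts from RefSeq. 1 called CDS row is not reported here by name.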

Additional observations from a re-analysis of the deposited data

Results flagged for a closer look

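The CNIH3 gene had a called row in a class that the comparisons above do not use. Its leader was chosen (90 counts, ratio 0.763, groups overlapping), but its row in the transcript class rose, by 3.05 on the log2 scale for both rocaglates against DMSO (SE 0.43, adjusted p = 0.00291 in edgeR's quasi-likelihood test). The transcript row had 18.7, 17.7 and 21.2 CPM with DMSO, 145, 108 and 87.3 with silvestrol, 166, 354 and 97.2 with CR-1-31-B, and 9.12 in the input. It was higher in 6 of 6 rocaglate libraries than in any DMSO library. What the transcript class holds is not given in the sources used here. The share of all transcript rows called was not worked out, so whether such a rise is unusual in that class is not known.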

How the results depend on the processing

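The membership depends on the limits and on single libraries. With the leader column alone as the denominator 2184 leaders met the rule, with at least 180 counts 476, with at least 45 counts 1487 and with a ratio of at most 0.6 it was 303. TMM-scaled sizes gave 839, all among the 936, and medians over libraries 1050, sharing 720. Leaving out 1 library gave 867 to 1208 (at least 10 counts a library on average), and 315 of the 936 (33.7%) were kept in all 9 of these. Of 20 named leader ratios, 2 passed 1, both without DMSO library 2: CDT1 ran from 0.195 to 1.15 and TRIM55 from 0.529 to 1.08 as each library was left out. For TRIM55 the rocaglate libraries 2, which were also the highest of their groups, were kept in that ratio.

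CDS calls were 8 with the replicate block (paired libraries, 5 lower and 3 higher) and 4 with DESeq2 (2 lower and 2 higher). Of all CDS rows the block called 0.178% lower and 1.19% higher, and DESeq2 0.0713% and 1.05%. There were 2 calls with no filter, and 0 to 3 leaving out 1 library (3 without silvestrol library 2, 2 without CR-1-31-B library 3). For these last fits the share of all CDS rows called was not worked out. For 3'UTRs, and for CR-1-31-B against silvestrol, 0 were called in any of the 13 alternatives. The CDS median ran from -0.34 to -0.14 and the 3'UTR median from -0.38 to -0.27. These ranges are for the chosen genes alone and do not show how the difference from other rows moved. The DMSO to input median was 3.65 with denominators from the leader, CDS and 3'UTR columns (2.94 for other leaders). In alternatives chosen after seeing the data, the purine difference of -3.25 points was -3.15 without ribosomal protein genes, -3.71 with at least 180 counts and -3.22 with TMM. Few 2-fold changes were recovered in simulated data, whether for low counts or for the spread between libraries was not tested.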
